A study of Mus musculus with 4 samples.

Results

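MHC class I presentation was followed through 6 genes: H2-K1 and H2-D1, which encode the classical class I heavy chains, B2m, which encodes the light chain beta-2 microglobulin, Tap1 and Tap2, which form the peptide transporter, and Tapbp, which encodes tapasin. Every probe set whose platform annotation names 1 of these genes was taken, without regard to its values. This gave 13 single-gene probe sets for all 6 genes, out of 12422 probe sets and 8251 genes. A further 3 probe sets that name H2-K1 or H2-D1 among several genes are described apart. The samples were seminal vesicles of 4 Nkx3.1 +/+ mice, wild type for that homeobox gene, of strain C57Bl/6J and 15 months of age, with 1 Affymetrix Mu74AV2 array per mouse. All belong to a single untreated group, so genotypes, ages and tissues could not be compared, and the question open to these arrays was how the genes were read in the gland and whether the mice differed. Nothing in the labels gives litter, cage or hybridisation batch. Mouse numbers, 1 to 4, are names and carry no order.

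Nearly all nucleated cells display class I molecules. Proteasomes cut cytosolic proteins into peptides, the transporter of Tap1 and Tap2 carries these into the endoplasmic reticulum, and tapasin holds the empty heavy chain and beta-2 microglobulin beside the transporter until a peptide is bound. The finished complex is read at the cell surface by CD8 T cells and by receptors of natural killer cells. Interferons induce most genes of the pathway, among other routes through interferon regulatory factor (IRF) sites in their promoters. Some of these promoters also hold kappa B sites, which kappa B factors such as Rela bind. Mice of C57Bl/6J background carry the b haplotype of the H2 complex.

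The promoters of the 5 members with an entry in the table are shown as background. Their part in the values given further on was not tested. Sequences are from RefSeq, build GRCm38.p6, and run from 250 bases before to 50 bases after the annotated start. Tap2 had no entry. Capitals mark matches to the IRF core AANNGAAA and to a kappa B consensus pattern. Both were searched on both strands, as was the interferon-gamma activated site TTCNNNGAA. The letters of these patterns were set after the sequences had been read, so the matches are descriptions and not tests.

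H2-K1, chr17:34000298-34000597, minus strand, the first of 2 annotated starts: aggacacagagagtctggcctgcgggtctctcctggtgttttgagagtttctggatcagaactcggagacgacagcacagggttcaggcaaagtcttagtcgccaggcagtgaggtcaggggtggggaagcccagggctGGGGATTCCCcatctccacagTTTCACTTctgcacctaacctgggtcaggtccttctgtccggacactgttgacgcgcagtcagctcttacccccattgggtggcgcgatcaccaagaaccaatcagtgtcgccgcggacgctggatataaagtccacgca
H2-D1, chr17:35262844-35263143, plus strand: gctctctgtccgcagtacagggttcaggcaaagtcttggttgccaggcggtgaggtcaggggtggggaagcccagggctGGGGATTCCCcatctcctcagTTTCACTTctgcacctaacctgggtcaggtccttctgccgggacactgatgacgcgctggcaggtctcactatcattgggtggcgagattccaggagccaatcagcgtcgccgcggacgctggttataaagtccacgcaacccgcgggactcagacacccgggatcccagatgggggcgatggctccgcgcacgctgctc
B2m, chr2:122147437-122147736, plus strand: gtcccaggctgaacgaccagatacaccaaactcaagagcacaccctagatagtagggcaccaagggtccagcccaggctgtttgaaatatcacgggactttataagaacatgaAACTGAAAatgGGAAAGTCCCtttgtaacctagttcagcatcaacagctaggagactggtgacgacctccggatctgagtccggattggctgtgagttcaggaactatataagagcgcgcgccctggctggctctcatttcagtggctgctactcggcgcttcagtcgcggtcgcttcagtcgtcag
Tap1, chr17:34187306-34187605, plus strand: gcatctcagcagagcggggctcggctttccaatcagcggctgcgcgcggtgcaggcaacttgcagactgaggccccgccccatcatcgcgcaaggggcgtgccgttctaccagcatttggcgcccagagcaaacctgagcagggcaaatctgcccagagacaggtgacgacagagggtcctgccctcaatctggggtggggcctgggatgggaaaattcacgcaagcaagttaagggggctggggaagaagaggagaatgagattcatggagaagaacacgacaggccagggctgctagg
Tapbp, chr17:33919228-33919527, plus strand: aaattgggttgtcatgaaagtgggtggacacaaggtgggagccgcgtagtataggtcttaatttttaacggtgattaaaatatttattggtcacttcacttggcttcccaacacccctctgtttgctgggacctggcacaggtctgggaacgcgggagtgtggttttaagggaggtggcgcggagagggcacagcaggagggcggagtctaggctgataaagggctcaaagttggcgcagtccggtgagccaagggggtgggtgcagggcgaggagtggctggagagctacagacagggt

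Each of the H2-K1, H2-D1 and B2m promoters held 1 match to the IRF core and 1 to the kappa B pattern, and the matches did not overlap. In H2-K1 the kappa B match began 111 bases before the start and the IRF match 90 bases before it. In H2-D1 the same letters began 171 and 150 bases before the start. The H2-K1 and H2-D1 promoters aligned over 227 bases, of which 206 (90.7%) were identical. In B2m the order was reversed, with the IRF match beginning 137 bases and the kappa B match 126 bases before the start. Over 27025 promoters of the same length, 24.2% held the IRF core, 4.71% the kappa B pattern and 1.15% both. The activated site, held by 8.47% of promoters, was matched in none of the 5 member windows. The windows of Tap1 and Tapbp held no match to any of the patterns. The Tap1 window shares 275 bases with that of Psmb9, a proteasome subunit gene read from the opposite strand. In the RefSeq order of chromosome 17, Psmb9, Tap1, Psmb8 and Tap2 are direct neighbours. B2m lies on chromosome 2, away from the H2 complex.

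Values are on a log2 scale, so 1 unit is a doubling of signal. Apart from the limit described next, no probe set's level is compared with another's, since probes bind unequally. For the same reason that limit is only a rough guide. To judge whether a probe set gave signal, each array's 90th percentile over 120 probe sets for 98 genes of other organs (liver, brain, lens and others) was used as a limit, which was 6.09, 5.82, 5.95 and 6.15 in mice 1 to 4. A probe set above its array's limit on all 4 arrays is called above the background range. By this rule 8 of the 13 probe sets and 4 of the 6 genes were above, against 25.1% of all probe sets and 30.6% of all genes. The 4 genes were H2-K1, H2-D1, B2m and Tapbp. Of 7 measured genes of seminal vesicle secretion, which mark the labelled tissue, 6 were above the range, among them Svs2 at 12.53 ± 0.10, Svs4 at 12.99 ± 0.03 and Svs5 at 13.09 ± 0.06 (SD, n = 4).

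H2-K1 was read by 3 single-gene probe sets. The brightest had 9.78, 9.94 and 9.55 in mice 1, 3 and 4 and was highest in mouse 2, at 0.06 above mouse 3, with a mean of 9.82 ± 0.20 (SD, n = 4). Mouse 4 was lowest, at 0.23 below the next mouse, and mice 2 and 3 were highest. The second had 7.11, 7.34, 7.45 and 7.04, again with mice 2 and 3 above mice 1 and 4. The third stayed under the limit on every array at 4.73, 4.79, 4.94 and 4.68, and its order of mice was that of the second.

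H2-D1 was also read by 3. Its brightest had 9.31, 9.57, 9.48 and 9.09 in mice 1 to 4, a mean of 9.36 ± 0.21 (SD, n = 4). The second had 9.04, 9.36, 9.26 and 8.65, and its signal in mouse 2 was 1.64 times that in mouse 4. In both, mouse 2 was highest and mouse 4 lowest by a clear step. The third, under the limit on all arrays, had 5.11, 5.33, 5.24 and 5.10, with mice 1 and 4 nearly level.

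All 6 single-gene probe sets of H2-K1 and H2-D1 were thus lowest in mouse 4, whereas 20.3% of all 12422 probe sets were. All of these but the third H2-K1 set carry the suffix f. It marks probe sets whose probes match several members of a sequence family in the array maker's scheme. Sets with the suffix can read the same transcripts and are not independent of each other. The third H2-K1 set names the same gene as the other H2-K1 sets, so it is not independent of them either.

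B2m had a single probe set, with 11.86, 11.96, 11.97 and 11.83 in mice 1 to 4, a mean of 11.91 ± 0.07 (SD, n = 4). The order of mice put 2 and 3 above 1 and 4 as for the heavy chains, but the whole range was 0.14 log2 units, or a signal ratio of 1.10.

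The transporter genes were close to the limit. The brighter Tap1 probe set had 6.25, 6.30, 6.15 and 5.81, above the limit in mice 1 to 3 and under it in mouse 4. The dimmer one was under the limit at 4.48, 4.33, 4.48 and 4.33, and the values of mice 1 and 3 were the same to the last digit. The single Tap2 probe set had 5.70, 5.81, 5.72 and 5.80, under the limit on all 4 arrays, with a range of 0.11 and mice 2 and 4 highest. A value under the limit does not show that a gene is silent.

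Tapbp had 3 probe sets, all above the range, that did not order the mice alike. The brightest had 6.83, 7.48, 7.06 and 6.82, with mouse 2 at 0.42 above the next mouse. The second had 6.90, 6.91, 6.76 and 7.23, and there mouse 4 was highest, at 0.32 above the next. The third had 6.73, 6.87, 6.71 and 6.92, again with mouse 4 highest. Of the 3, 1 was lowest in mouse 4 and the other 2 were lowest in mouse 3, so no direction can be given for the gene.

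**Figure D1:**
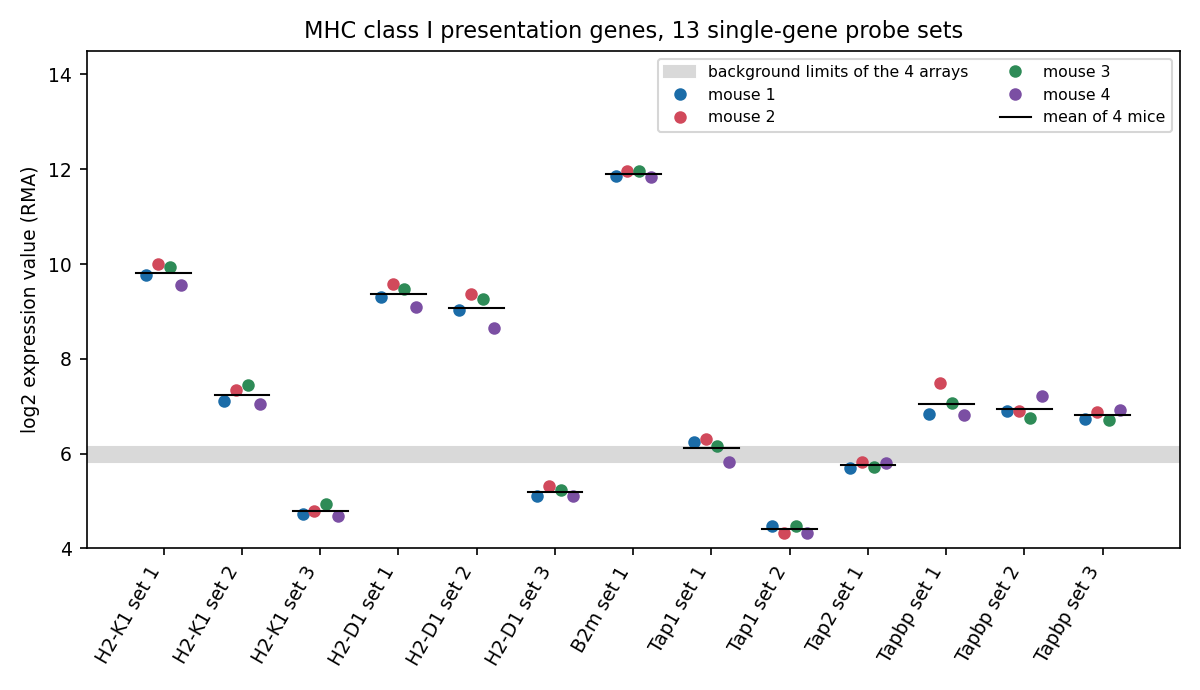
Log2 expression value of each of the 13 single-gene probe sets (horizontal axis, sets of a gene numbered from brightest) in each mouse (points), with the mean of the 4 mice (bar) and the span of the 4 arrays' background limits (grey). H2-K1 sets 1 and 2, H2-D1 sets 1 and 2, B2m and all 3 Tapbp sets lie above the grey span, Tap1 set 1 lies across it and Tap2 at its lower edge.

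Each probe set's variance over the 4 arrays was tested against the variance that limma's model expects at its signal. The test covered all 12422 probe sets, with Benjamini-Hochberg adjustment and a threshold of 0.05. The expected variance is fitted to the variances of all probe sets over these same 4 arrays. It thus already holds the usual differences between the mice and arrays. A call means a spread larger than is usual, and no call does not show that the mice were alike. By limma, 0 of the 13 probe sets were called, where 0.282% of all probe sets were. At an unadjusted p under 0.05 in limma stood 2 of 13, against 5.44% of all. These were the second H2-D1 set (SD 0.32, adjusted p = 0.728, limma) and the brightest Tapbp set (SD 0.31, adjusted p = 0.714, limma). The SD of the former was 2.43 times, and that of the latter 2.48 times, what the model expects at that signal. The brightest probe sets of H2-K1 (1.57 times), H2-D1 (1.65 times) and Tap1 (1.77 times) lay above the expected SD and those of B2m (0.60 times) and Tap2 (0.44 times) below it. An SD of 0.625 to 0.68 would have been needed for a call, which is more than any of the 13 showed, so smaller differences between mice could not be called with 4 arrays. With 1 animal to an array, differences between animals and between arrays cannot be told apart.

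**Figure D2:**
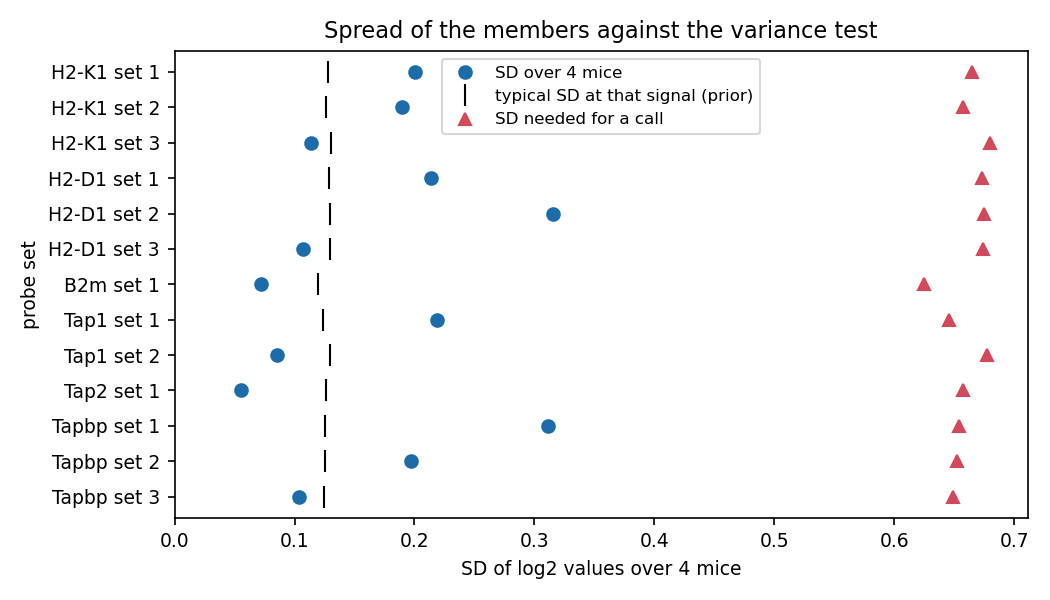
SD of the log2 values over the 4 mice for each of the 13 probe sets (circles), the SD that limma's prior gives at the same signal (ticks) and the SD at which the probe set would have been called (triangles), on a linear axis from 0. All circles lie at 0.32 or less and all triangles at 0.625 or more.

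The SD of some members was smaller with 1 mouse left out, here the mouse farthest from the gene's mean. Leaving out that mouse lowers an SD whatever the values are, so the falls single out no mouse. By the gap rule given further on, none of the 13 probe sets had 1 mouse set apart. Without mouse 4 the SD of H2-K1 was 0.11 instead of 0.20, that of H2-D1 0.13 instead of 0.21 and that of Tap1 0.08 instead of 0.22, each by its brightest probe set. Without mouse 2 the SD of Tapbp was 0.14 instead of 0.31, and with the mean of its 3 probe sets it was 0.13.

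Averaged over the brightest probe sets of the 6 genes, the deviations from each gene's own mean were -0.05, 0.19, 0.05 and -0.19 in mice 1 to 4. In mouse 4, 5 of the 6 were lowest, the exception being Tap2, and in mouse 2, 5 of the 6 were highest, the exception being B2m. Mouse 4 was singled out after its values were seen, so the counts for every mouse are given beside those of all probe sets above the range. Among the 8 member probe sets above it, 0, 0, 2 and 6 were lowest in mice 1 to 4, against 23.3%, 31.5%, 24.3% and 20.9%. Highest in mice 1 to 4 were 0, 4, 2 and 2, against 23.5%, 30.1%, 25.9% and 20.5%. Mouse 2 highest together with mouse 4 lowest was the case for 4 of the 8, against 8.57%. The full order 2, 3, 1, 4 from high to low was shown by the same 4 of the 8, against 4.85%. This pair of mice and this order were also chosen after the values were seen. The 4 sets were the brightest set of H2-K1, both sets of H2-D1 above the range and the brightest of Tapbp. Those of H2-K1 and H2-D1 carry the suffix f and can read the same transcripts. The other Tapbp sets were highest in mouse 4. The mean deviation is a description without a test, and its size depended on the probe sets used: with a gene's probe sets averaged it was 0.104 in mouse 2 and -0.105 in mouse 4.

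**Figure D3:**
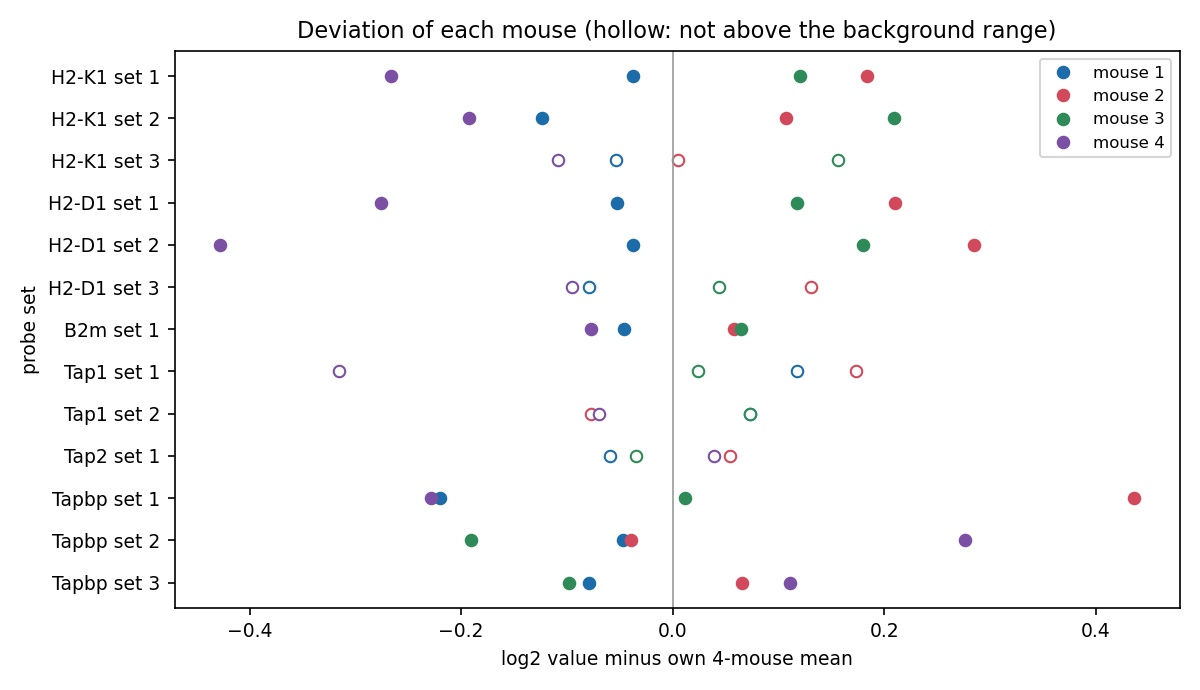
Deviation of each mouse (coloured points) from the 4-mouse mean, in log2 units, for each of the 13 probe sets; hollow points mark probe sets not above the background range. Mouse 4 lies leftmost in all 6 rows of H2-K1 and H2-D1 and rightmost in Tapbp sets 2 and 3.

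The wider family of class I heavy chains was read by 34 probe sets, counting those that name several genes and those of H2-K2 and H2-D4, which were added after values had been seen. Of these, 16 were above the range, and 13 of the 16 were lowest in mouse 4, against 20.9% of all probe sets above the range. Over all 34, 20 were lowest in mouse 4, and over the 18 not above the range 7 were, against 20.3% of all probe sets. Among those above, without the 6 that name H2-K1 or H2-D1, 8 of 10 were. All 13 sets lowest in mouse 4 among the 16 carry the suffix f, and the rest of the 16 do not. Sets with that suffix can read the same transcripts, so these counts are not independent of H2-K1 and H2-D1. H2-Q4, of the nonclassical Q region, had 7.96, 8.17, 8.15 and 7.69, with the same order of mice as the brightest H2-K1 set. H2-K2 had 8.97, 9.10, 9.20 and 8.83, and H2-D4 had 6.55, 6.67, 6.58 and 6.42. A set shared by H2-Q9, H2-Q7 and H2-Q5 had 9.09, 9.07, 9.01 and 8.71, with mouse 4 lowest by 0.29. By the gap rule given further on, mouse 4 was not set apart in it. Smaller ranges were seen for H2-Bl, at 7.75, 7.81, 7.74 and 7.63, and for H2-T18, at 8.08, 8.02, 8.04 and 7.98. H2-M10.1, a gene of the vomeronasal M10 family, went another way, at 7.06, 6.99, 7.07 and 7.17, and was highest in mouse 4. By limma 0 of the 34 probe sets were called, and 3 of 34 stood at an unadjusted p under 0.05. The largest SD was that of a probe set that names H2-K2 and H2-Q2, at 6.26, 6.99, 6.54 and 6.19 (SD 0.37, adjusted p = 0.473, limma).

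Probe sets that name a member among several genes gave mixed values. The first, which names 10 genes including H2-K1 and H2-D1, had 8.50, 8.62, 8.68 and 8.32, with mice 2 and 3 high and mouse 4 low. The second, which names H2-K1 and 3 H2-Q genes, had 6.42, 6.27, 6.24 and 6.46, with mouse 4 highest. The third, which names H2-D1 and 4 H2-Q genes, was under the limit at 3.25 to 3.35. Since the array's family probe sets can bind transcripts of several H2 genes, the shares of H2-K1, H2-D1 and their relatives in these signals cannot be told apart.

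**Figure D4:**
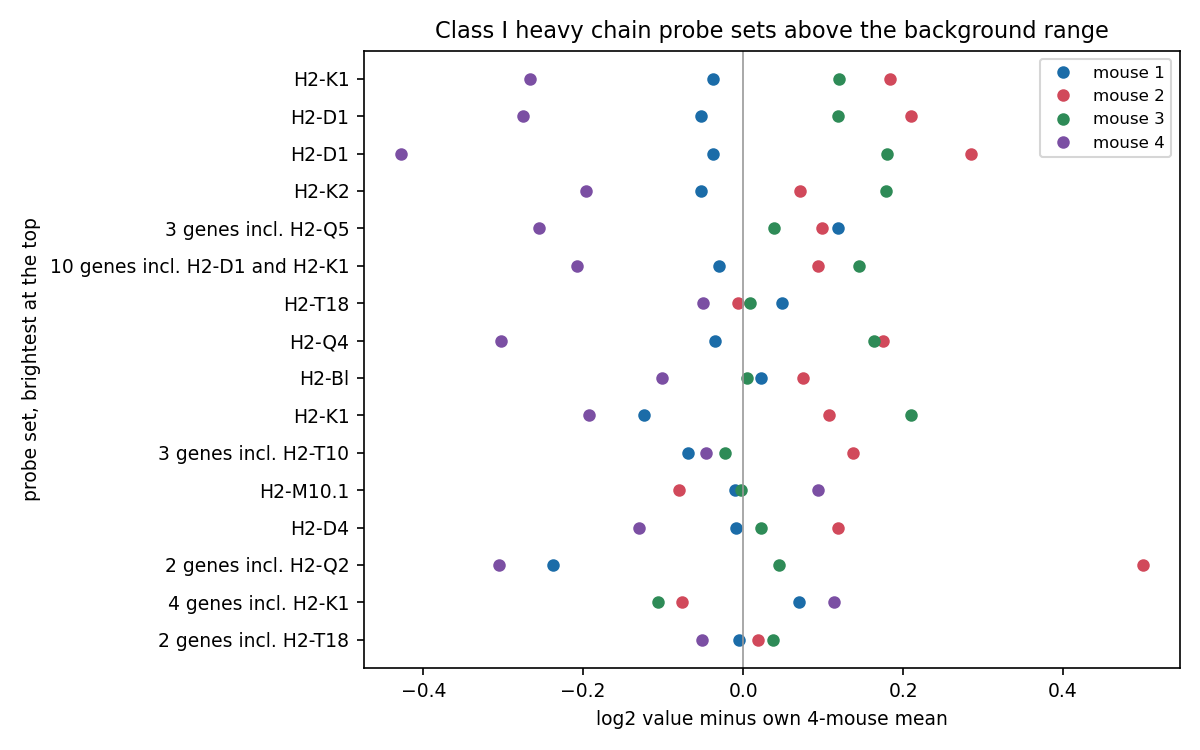
Deviation of each mouse (coloured points) from the 4-mouse mean, in log2 units, for the 16 class I heavy chain probe sets above the background range, brightest at the top; rows that name several genes give their number. Mouse 4 is leftmost in 13 of the 16 rows.

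By the size of the difference between patterns over the 4 mice (root mean square of the differences in deviation, in log2 units), the probe set nearest to that of H2-K1 among 2770 of other genes above the range was that of H2-D1, at 0.0159. Next came Slc25a28, a mitochondrial iron importer gene, at 0.0238 (7.07, 7.30, 7.18 and 6.83), and H2-Q4 at 0.0288. For H2-D1 the nearest were H2-K1, Slc25a28 at 0.0243 and Shisa5, which encodes a membrane protein of the endoplasmic reticulum, at 0.0318 (6.94, 7.23, 7.05 and 6.68). For B2m they were Cdc37, a co-chaperone gene of Hsp90, at 0.00898, Lamtor2, a subunit of the Ragulator complex, at 0.0131, and Tbx2, a T-box factor, at 0.0146. For Tapbp they were the nucleolar protein gene Npm1 at 0.0293 (7.52, 8.21, 7.73 and 7.47), the RNA helicase gene Ddx5 at 0.0315 and the RNA-binding protein gene Nono at 0.0332. With 4 mice many probe sets share a pattern, and probe sets of small range are near to each other by this measure whatever they read.

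Other genes of the pathway were counted from lists chosen with earlier results of these data known. Of 18 measured genes of peptide loading and trimming, 12 were above the range, and by limma 0 were called (3 at an unadjusted p under 0.05). Pdia3, which encodes ERp57 and pairs with tapasin, had 8.13, 8.27, 8.24 and 7.96 in mice 1 to 4. The chaperone gene Canx had 7.75, 7.53, 8.16 and 7.76, with mouse 3 highest, and Pdia4 had 6.89, 6.85, 7.56 and 7.01, also with mouse 3 highest. Calr, the calreticulin gene, was under the limit at 3.05 to 3.25. The 12 genes above had a mean deviation of -0.04, -0.08, 0.16 and -0.04 in mice 1 to 4, which is not the order of the heavy chains. The median SD was 0.12 for these 12 and 0.11 for all 2527 genes whose brightest probe set was above the range.

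The interferon-inducible proteasome genes were measured in 4 cases and above the range in 2, and by limma 0 were called (1 at an unadjusted p under 0.05). Psmb8, the neighbour of Tap1 and Tap2, had 5.54, 5.73, 6.04 and 4.87 in mice 1 to 4. Mouse 4 was lowest by 0.67, and the SD of 0.50 was 3.92 times that expected at its signal (adjusted p = 0.189, limma), but all values except that of mouse 3 were under the limit. Psmb9 was under the limit on all arrays at 5.01, 5.11, 5.09 and 4.84, also lowest in mouse 4. Psmb10 had 6.61, 6.51, 6.67 and 6.63, and Psme1, a proteasome activator gene, had 6.30, 6.39, 6.47 and 6.29, both within a range of 0.18 or less.

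Regulators of class I transcription were above the range in 6 of 14 measured cases, and by limma 0 were called (0 at an unadjusted p under 0.05). Irf1, which activates class I promoters after interferon, had 6.20, 6.23, 6.31 and 6.11 and missed the range only in mouse 4, where the limit was highest. Irf9, the DNA-binding part of the type I interferon factor, had 6.75, 6.78, 6.43 and 6.38. Irf3 (6.17, 6.31, 6.44 and 5.94) and Irf8 (4.92, 5.26, 5.22 and 4.90) were not above the range and, like Irf1 and Irf9, lowest in mouse 4. Rela, a kappa B factor, had 7.37, 7.44, 7.45 and 7.44. Nlrc5, the class I transactivator, was not analysed here. Over all 14 regulators the mean deviations were 0.02, 0.02, -0.01 and -0.04 in mice 1 to 4, lowest in mouse 4. Over the 6 above the range they were 0.07, -0.02, -0.04 and -0.004, lowest in mouse 3. Of 29 genes of interferon signalling and response, 6 were above the range, and by limma 0 were called (2 at an unadjusted p under 0.05). Ifng (2.10 to 2.18), Ifngr1 (3.85 to 4.17) and Ifngr2 (4.33 to 4.48) were under the limit on every array. The 6 genes above had mean deviations of -0.01, 0.05, -0.02 and -0.01 in mice 1 to 4. The means hide opposite orders: of the 6, Ifi27, Ly6e and Ifitm3 were lowest in mouse 4 and Usp18 was highest there, genes named after their values were seen. Genes under the limit also differed in order: Ifngr2 was lowest in mouse 4, Ifng in mouse 3 and Ifngr1 in mouse 1. Over all 29 genes the mean deviations were -0.01, 0.05, -0.02 and -0.02 in mice 1 to 4.

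Class II genes, of which 7 of 12 were above the range, also had their lowest mean deviation in mouse 4, at -0.13, 0.11, 0.20 and -0.18 in mice 1 to 4. Cd74, the invariant chain gene, had 9.08, 9.47, 9.58 and 8.81. By limma 0 of the 12 were called, and 5 stood at an unadjusted p under 0.05, where 4.93% of all genes did by their brightest probe set.

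Markers of leukocytes were read beside these values, since leukocytes carry much class I. Of 14 general leukocyte genes 6 were above the range, and the list's mean level ran from 6.11 in mouse 4 to 6.22 in mouse 3. The defining gene Ptprc was under the limit at 3.71 to 4.11. The 6 above, named after their values were seen, were Laptm5, Cd52, Lcp1, Lsp1, Rac2 and Arhgdib, of which 2 were lowest in mouse 4, and their mean deviations of 0.06, -0.04, 0.01 and -0.03 in mice 1 to 4 were lowest in mouse 2. Of 17 macrophage and dendritic cell genes 4 were above, and the mean level was 5.17, 5.13, 5.28 and 5.01 in mice 1 to 4. Cd68 (4.69 to 4.94), Adgre1 (4.70 to 5.07) and Csf1r (5.26 to 5.55) were under the limit. Above it, and named after their values were seen, were the complement genes C1qa (6.63, 6.70, 6.97 and 6.44) and C1qc (7.68, 7.59, 7.86 and 7.43), Mpeg1 (6.58, 6.57, 6.94 and 6.43) and Cd14 (6.62, 6.60, 6.67 and 6.69). Of these 4, all but Cd14 were lowest in mouse 4. Of 11 B and plasma cell genes 3 were above and 3 were called by limma (Ighm, Igha and Jchain, of which Jchain was not above the range), where 0.218% of all genes were called in any probe set, and the mean level was 5.88, 6.12, 6.12 and 5.65. Ighm, the heavy chain gene of IgM, had 8.51, 9.14, 8.67 and 6.57, the same order of mice as the brightest sets of H2-K1 and H2-D1. Igha and Jchain were also lowest in mouse 4 but highest in mouse 3. Every other gene of this list was lowest in mouse 1 or mouse 2. Among them Cd79a (5.84 to 6.17), Cd79b (4.89 to 5.12) and Ms4a1 (6.05 to 6.22) were not above the range, and Cd79a was highest in mouse 4. The mean levels of these 3 lists were lowest in mouse 4, but for the general leukocyte list this did not hold over its genes above the range. In the B and plasma cell list only the 3 called genes were lowest in mouse 4. The T and NK cell list was not lowest there, at 4.86, 4.78, 4.85 and 4.80, and of its defining genes Cd3d (2.88 to 2.98) and Cd3g (3.07 to 3.44) were under the limit while Cd3e (6.03 to 6.31) was above it. Endothelial genes, with 2 of 11 above, were highest in mouse 4 at 5.03, 5.06, 5.09 and 5.13. Luminal epithelial genes, with 9 of 14 above, had 6.45, 6.59, 6.44 and 6.52. The part of these cell types in the class I values was not tested. In whole tissue, fewer cells of a type and less RNA per cell cannot be told apart.

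**Figure D5:**
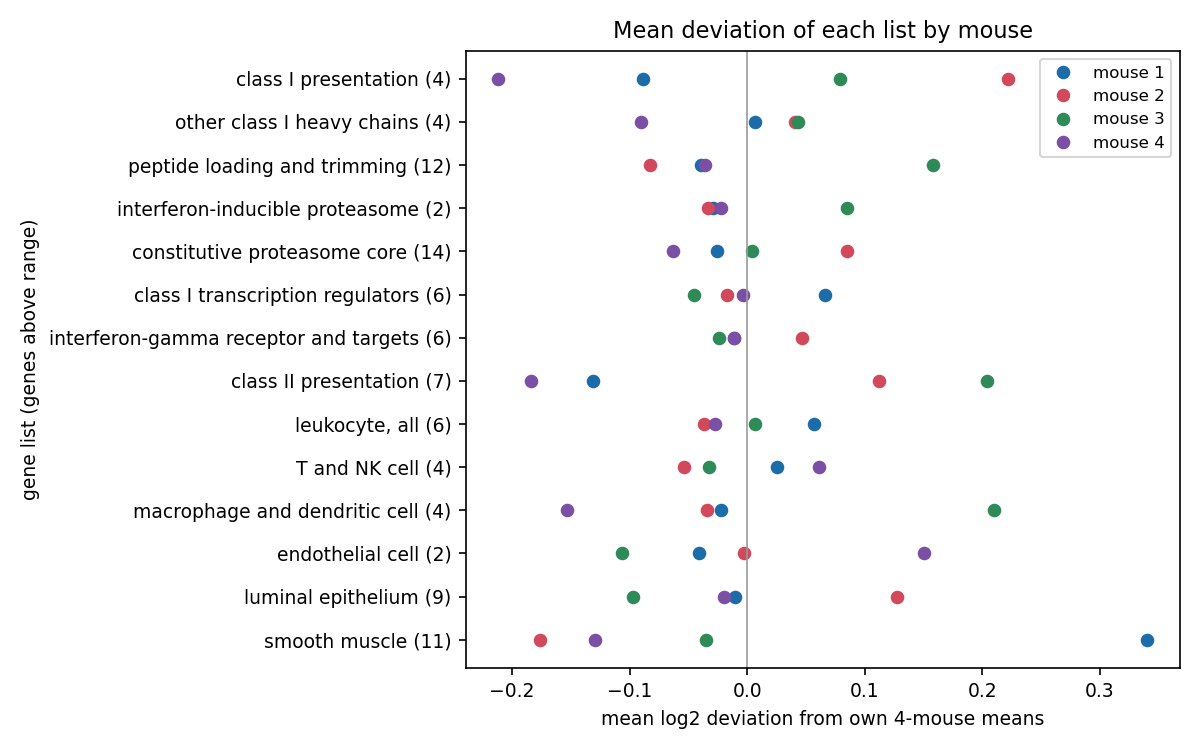
Mean deviation of each gene list from its genes' own 4-mouse means, in log2 units, by mouse (coloured points), over the genes whose brightest probe set was above the background range (number in brackets). Mouse 4 is leftmost for the class I presentation genes, the other class I heavy chains, the constitutive proteasome core, the class II genes and the macrophage list. The interferon list has all mice within 0.07, and the smooth muscle list stands out for mouse 1 at 0.34. The B and plasma cell list, not plotted, ran from -0.90 in mouse 4 to 0.64 in mouse 2.

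The arrays resembled each other, with r of 0.992 to 0.994 across probe sets for the 6 pairs of arrays. As a sign of RNA quality, the 3' probe set less the 5' probe set of the Gapdh control gave -0.12, -0.15, -0.15 and -0.13 in mice 1 to 4, and the same for beta-actin gave 1.08, 0.82, 1.02 and 0.98. Mouse 4 was at neither end in either control, while mouse 2, the highest in most members, was lowest for beta-actin, and its 3 pairs with other arrays had the 3 lowest r. The part of these differences in the class I values was not tested. The mean deviation over all 2527 genes above the range lay between -0.01 and 0.01 in every mouse.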

How the data were processed

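Total RNA from 4 seminal vesicles was hybridised to 1 Affymetrix array each, per the labels' protocols. The authors deposited 1 log2 value for each probe set and array, computed with RMA per the submitters' processing notes. The RMA version is not given in the sources used here, nor the set of arrays it was run on. RMA sets arrays to a common distribution, so a change shared by most genes would not appear. The log2 scale was read from the values (1.47 to 13.2), which were not transformed further. The 66 control probe sets were left out of tests. Gene names came from the platform annotation, matched by gene ID to RefSeq names of GRCm38.p6 (10817 of 10833 single-gene probe sets).

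The variance over 4 arrays (3 residual degrees of freedom) was tested against limma's prior, fitted robustly with mean signal as trend (8.06 degrees of freedom), by an upper-tail F test over 12422 probe sets. A gene stands by its brightest single-gene probe set unless stated otherwise. Named are all probe sets of the members and the 3 nearest patterns per member above the range. Examples were drawn from the H2 class I family, the loading, inducible proteasome and regulator lists, the first 3 measured genes of other lists, and called genes; genes outside this rule are said to be chosen after their values were seen. The members and lists were chosen with earlier results of these data known. Alternatives covered scaling, each mouse left out, prior fits, filters, background limits and combinations of probe sets. P-values measure only the spread between these 4 samples, and the number of arrays limits the precision. Software was limma 3.58.1 under R 4.3.3, and matplotlib 3.10.9 under Python 3.11.15.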

Additional observations from a re-analysis of the deposited data

Results flagged for a closer look

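Of the probe sets of the members, of the class I heavy chain family, of the loading, inducible proteasome and regulator lists and of the nearest patterns, 4 had 1 mouse set apart from the others: the gap to the nearest mouse, as a share of the whole range, was above Dixon's 95% critical value for 4 samples. Chance does this in about 1 in 20 groups, and 5.09% of all 12422 probe sets did it. Of the 34 heavy chain probe sets 2 (5.88%) did, close to that share. None of the 13 single-gene probe sets of the members was among the 4. H2-Q1, a heavy chain gene under the background limit, had a gap of 0.993 of its range, with 4.50 in mouse 2 against 4.32 to 4.33 in the others. H2-M1, also under the limit, had 0.835, with 4.26 in mouse 1 against 4.38 to 4.40. Blmh, a peptidase gene that trims class I peptides, had 0.902, with 6.19 in mouse 1 against 6.44 to 6.47. Rela had 0.907, with 7.37 in mouse 1 against 7.44 to 7.45.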

How the results depend on the processing

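Among the members 0 probe sets were called by limma in each of the 10 other settings tried, of 13 tested in 8 settings, 9 above the mean background limit and 11 above the median of all means (2 at an unadjusted p under 0.05 on 4 mice, and 1 to 3 with a mouse left out). The SD was that of the brightest probe set, or of the mean of a gene's probe sets where these were averaged. It ran from 0.11 to 0.24 for H2-K1, 0.13 to 0.26 for H2-D1, 0.0349 to 0.0797 for B2m and 0.0755 to 0.27 for Tap1. For Tap2 it ran from 0.0476 to 0.0726 and for Tapbp from 0.13, with its probe sets averaged, to 0.38. The adjusted p was 0.414 or more throughout (limma). Tap2 was among the 4 not tested above the mean background limit. Members above the range numbered 4 with other scalings and the 95th percentile, 6 with the 75th percentile or the array median, and 4 to 5 with a mouse left out. Heavy chain probe sets lowest in mouse 4 numbered 13 of 16 with arrays shifted to the same median and 12 of 16 after quantile normalization, 18 of 25 with the 75th percentile, 11 of 13 with the 95th and 18 of 24 with the array median; these were chosen after seeing the data. The mean deviation of the members kept its sign in mice 2 and 4 under all settings, and with another mouse left out, a setting also added after seeing the data, it ran from -0.112 to 0.012 in mouse 1, 0.124 to 0.203 in mouse 2, -0.012 to 0.113 in mouse 3 and -0.204 to -0.125 in mouse 4. Over all probe sets 35 were called, 15 with a non-robust prior fit, 17 with a gene's probe sets averaged, 0 above the mean background limit (194 at an unadjusted p under 0.05, limma), 1 above the median of all means, and 17 to 44 with a mouse left out; the cause was not tested, though filters and averaging change the number tested. No paired analysis was possible because there is 1 group.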

Other observations

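Genes of the constitutive proteasome core, which supplies peptides without interferon, were above the background range in 14 of 15 measured cases, and by limma 0 were called (2 at an unadjusted p under 0.05). Psmb5, Psmb6 and Psmb7, the catalytic subunits that the interferon-inducible ones replace, had 6.55, 7.13, 6.78 and 6.65, then 7.49, 7.30, 7.22 and 7.44, and 6.61, 6.65, 6.74 and 6.41 in mice 1 to 4. Mouse 2 was highest for Psmb5, mouse 1 for Psmb6 and mouse 3 for Psmb7. Over the 14 genes above, however, the mean deviations were -0.026, 0.085, 0.004 and -0.063 in mice 1 to 4. That is the order of mice of the members' mean deviations, at a smaller size. Highest in mouse 2 were 8 of the 14, against 749 of all 2527 genes above the range. Lowest in mouse 4 were 5 of the 14, against 526 of the 2527.

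Of 13 measured genes listed as receptors that read class I molecules, 1 was above the range, and by limma 0 were called (0 at an unadjusted p under 0.05). The 1 above, named after its values were seen, was Lrp1 (6.35 to 6.78). It encodes a general endocytic receptor and not a receptor specific to class I. Every other gene of the list was under the limit on all 4 arrays by its brightest probe set. The CD8 genes Cd8a (3.02 to 3.26) and Cd8b1 (4.37 to 4.57) and the natural killer receptor gene Klrd1 (3.21 to 3.44) were under the limit on all 4 arrays.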
